A study of Mus musculus with 30 samples.

Results

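The subject is a set of 10 genes for p300 and other enhancer coactivators in mouse embryonic stem (ES) cells with and without Tdg, the gene of thymine DNA glycosylase. They are Ep300, Crebbp, Kat2a, Kat2b, Ncoa1, Ncoa2, Ncoa3, Kdm1a, Med1 and Med12, named by function and looked up by symbol among 20286 gene symbols. All 10 were found, each on 1 row of the tables, and all 10 had at least 1 FPKM (fragments counted per transcript length and per mapped fragment of the library) in either genotype. Of all symbols, 12053 reached this level and are called measured genes below. The groups were Tdg fl/fl ES cells, which carry floxed alleles of Tdg and served as controls, and Tdg -/- ES cells, both of strain C57BL/6-ICR. The labels do not say how or where the floxed alleles were deleted, or whether each genotype was 1 clone. For each genotype there was 1 FPKM table from 2 polyA RNA libraries read at 51 bp, and 1 list of p300-bound regions from 3 chromatin immunoprecipitation libraries. The libraries of a group were combined by the authors, so no value has a spread between replicates and no test between the genotypes was possible.

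Coactivators are brought to enhancers and promoters by sequence-specific transcription factors and pass the signal on to chromatin and RNA polymerase II. Ep300 encodes p300, and Crebbp the closely related CBP, histone acetyltransferases whose presence is widely used to mark enhancers. In pluripotent cells such enhancers are also places where TET enzymes oxidise 5-methylcytosine to 5-hydroxymethylcytosine (5hmC) and on to 5-formylcytosine (5fC), which thymine DNA glycosylase removes. The other genes encode further acetyltransferases, adaptors for nuclear receptors, subunits of the Mediator complex and the histone demethylase LSD1, which acts at enhancers with corepressors.

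To show what kind of sequence lies before these genes, the stretches before the annotated starts of Ep300, the gene set against the p300 regions below, and of Kat2a, 1 of 2 members on chromosome 11, are printed. They come from RefSeq on GRCm38.p6, at chr15:81585964-81586208 on the plus strand and chr11:100712486-100712717 on the minus strand, 5′ to 3′, and capitals mark CpG dinucleotides, the usual substrate of methylation.
Ep300: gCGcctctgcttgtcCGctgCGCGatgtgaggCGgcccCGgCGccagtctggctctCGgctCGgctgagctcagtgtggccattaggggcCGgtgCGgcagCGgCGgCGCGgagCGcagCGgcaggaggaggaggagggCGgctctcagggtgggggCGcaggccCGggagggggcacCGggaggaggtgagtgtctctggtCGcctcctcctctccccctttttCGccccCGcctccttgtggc
Kat2a: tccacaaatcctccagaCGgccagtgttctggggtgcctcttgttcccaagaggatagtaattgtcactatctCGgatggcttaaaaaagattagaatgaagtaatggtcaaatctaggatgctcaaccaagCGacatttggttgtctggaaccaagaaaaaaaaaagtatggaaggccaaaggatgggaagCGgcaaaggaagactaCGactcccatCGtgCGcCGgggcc

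The Ep300 stretch held 24 CpG in 245 bases at 73.9% GC, and 88.7% of the 32851 RefSeq windows cut to that length held fewer. The Kat2a stretch held 8 in 232 bases at 47.4% GC, and 59.6% of windows of that length held fewer. On either strand, the Ep300 stretch had 1 match to the GC box GGGCGG, which 32.1% of windows hold, and no match to the CCAAT box, to TGACG (part of the site of CREB, a factor that binds CBP and p300), CCGGAA (ETS), CACGTG (E-box) or the core promoter element TATAAA. The Kat2a stretch had no match to any of the 6. In windows of that length these motifs were held by 30.1% (GC box), 32.4% (CCAAT), 16.1% (TGACG), 10.4% (CCGGAA), 5.41% (CACGTG) and 11.9% (TATAAA). Windows were found for 8 of the 10 members, with 5 to 44 CpG in the 250 bases before the start used there (median of all windows 6); Crebbp had 44, Ncoa1 40 and the first of 2 windows of Kat2b 6. Some of these starts lie inside the annotated gene, 553 bases for Crebbp, 407 for Med1 and 17352 for the second window of Kat2b, which has the lowest number of CpG, 5. The region lists are on mm9, so no region was placed on these stretches.

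All 10 coactivator genes were transcribed in both genotypes at nearly the same levels, and Med1 was the member whose values lay farthest apart. On the log2((Tdg -/- FPKM + 1)/(fl/fl FPKM + 1)) scale, called the log2 change here, the other 9 members lay within 0.2 of 0. Tdg itself read 22.1 FPKM in the controls and 9.48 FPKM in the deleted cells. None of the 10 members reached a log2 change of 1 in either direction, which 0.357% of measured genes did. A log2 change of -0.25 or lower was found for 1 member, Med1, against 10.2% of measured genes, and one of 0.25 or higher for none, against 8.92%. With the columns scaled to the same sum, 774 measured genes in place of 1231 were at -0.25 or lower and 1584 in place of 1075 at 0.25 or higher, and the members' counts stayed 1 and 0. Counts this small among 10 members do not stand apart from the background. In bulk RNA, fewer cells of a type and less RNA per cell cannot be told apart. The median over the members was 0.04, with 6 above 0 and 4 below, beside -0.02 over all measured genes, of which 54.9% lay below 0. As a check on the cells, all 10 ES cell markers were measured in both genotypes, between 31.6 and 4571 FPKM in fl/fl cells and 46.1 and 4691 FPKM in Tdg -/- cells. The 10 fibroblast markers summed to 8.80 and 6.98 FPKM, mostly Fbln2 (4.43 and 3.80 FPKM), Thy1 (2.36 and 1.72 FPKM) and Twist1 (1.46 and 1.03 FPKM). Lum and S100a4 were listed at 0 in both genotypes. The 12 markers of neural, mesoderm and endoderm cells summed to 32.4 and 28.3 FPKM, mostly Tubb3 (20.2 and 18.7 FPKM) and Krt18 (8.80 and 6.92 FPKM).

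**Figure D1:**
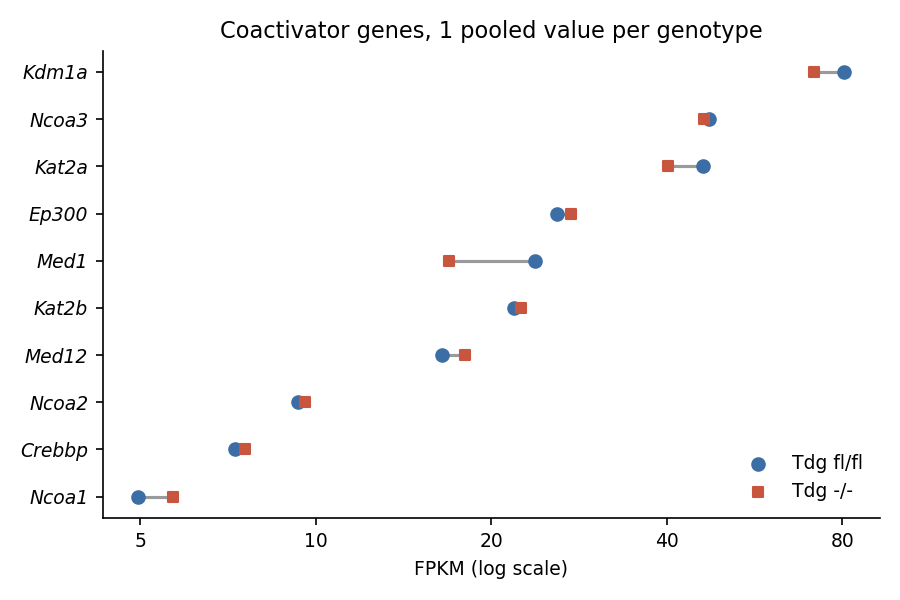
FPKM of the 10 coactivator genes on a log axis, ordered by the fl/fl level, with circles for Tdg fl/fl and squares for Tdg -/- ES cells, each 1 pooled value from 2 libraries. The genes span 4.96 to 80.6 FPKM in fl/fl cells. Their order is the same in both genotypes except for Med1, Kat2b and Med12 at places 5 to 7.

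Levels differed between the members far more than between the genotypes. Kdm1a was the highest and Ncoa1 the lowest in each, 16.3-fold apart in fl/fl and 12.6-fold apart in Tdg -/- cells on the FPKM scale, which is per transcript length. Places 1 to 4, from Kdm1a through Ncoa3 and Kat2a to Ep300, and places 8 to 10, held by Ncoa2, Crebbp and Ncoa1, were the same in both genotypes. Med1, Kat2b and Med12 shared places 5 to 7. Med1 was listed first of these in fl/fl cells, at 1.09 times Kat2b, and last in Tdg -/- cells, at 0.939 times Med12. Without replicates, neighbours in this order as close as these, or as Ncoa3 and Kat2a (a ratio of 1.02 in fl/fl and 1.15 in Tdg -/- cells), cannot be ranked.

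Ep300 was at 25.9 FPKM in the fl/fl controls and at 27.4 FPKM without Tdg, or 106% of the control value. Its log2 change was 0.08, and 64.6% of measured genes had a larger absolute change. The Ep300 change was 0.15 with the columns scaled to the same sum and 0.13 after quantile normalization. The medians over all measured genes under these 2 scalings were 0.04 and -0.0028. Crebbp, for CBP, stood at 7.27 and 7.57 FPKM, a log2 change of 0.05. The p300 transcript was thus 3.56 times as abundant as that of CBP in fl/fl and 3.62 times in Tdg -/- cells, and it made up 78.1% and 78.4% of their sum. The genes with levels most like Ep300, by distance on log2(FPKM + 1) over the 2 pooled values, were Ttc9c (25.7 and 27.4 FPKM), Acads (25.96 and 27.2 FPKM) and Zfand1 (25.97 and 27.2 FPKM). With only 2 values such likeness is common: 123 measured genes lay within a distance of 0.1.

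The p300 gene was next set against the p300 region lists. The antibody found 32160 regions in fl/fl and 43345 in Tdg -/- cells, 1.35 times as many, over 30.5 and 41.2 Mb. The Ep300 transcript, without any scaling of the columns, was at 1.06 times its fl/fl level. Each region has a score deposited by the authors. The headers of the 5fC and 5hmC lists give theirs as a p-value on a negative log10 scale with a fixed multiplier; the p300 lists have no header, and their score, which starts at 50 in both, is read in the same way. The ratio of region numbers was larger where only strong regions were counted. With a score of at least 100 the lists held 17088 and 24734 regions (ratio 1.45), with at least 500 they held 2419 and 4254 (1.76), and with at least 1000 they held 787 and 1562 (1.98). A score grows with library depth, which is unknown here, so the part of depth in these ratios was not tested. The protein level of p300 was not measured by these assays.

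**Figure D2:**
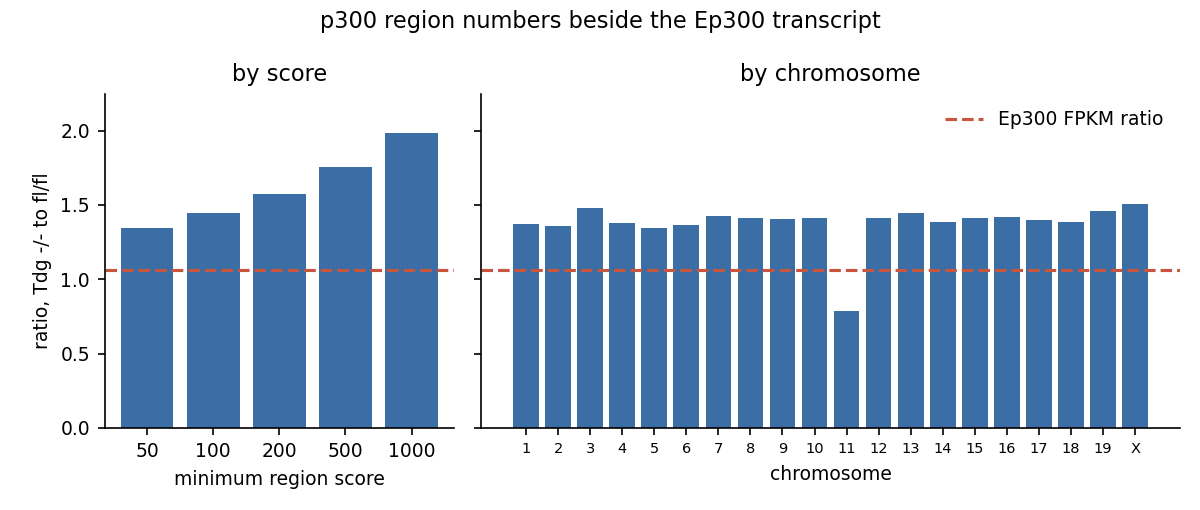
Bars give the number of p300 regions in Tdg -/- cells divided by that in fl/fl cells. They are drawn on the left for regions at or above a minimum score and on the right for each chromosome. The dashed line is the Tdg -/- to fl/fl ratio of the Ep300 FPKM (1.06), a measure unlike a number of regions. The ratio of region numbers goes from 1.35 at a score of 50 to 1.98 at 1000. Chromosome 11 (0.787) is the 1 chromosome below the line.

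The strongest regions were common to both genotypes. Of the 1000 fl/fl regions with the highest scores, 99.7% (Wilson 95% interval 99.1 to 99.9, counting error only) overlapped a Tdg -/- region by at least 1 bp, and of the top 1000 Tdg -/- regions 99.7% overlapped a fl/fl region. For the top 10000 the shares were 96.6% (96.2 to 96.9) and 94.7% (94.3 to 95.1). Over the whole lists, 78.4% of fl/fl and 57.8% of Tdg -/- regions had a counterpart, and Tdg -/- regions without one had a median score of 78.0 against 181 with one. For comparison, the median score of the whole Tdg -/- list was 115.

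A larger share of the regions in the larger list also overlapped called 5fC or 5hmC. Of Tdg -/- p300 regions, 39.1% (38.7 to 39.6) overlapped a 5fC region of the same cells and 51.2% (50.7 to 51.7) carried neither 5fC nor 5hmC, while 12.9% (12.5 to 13.3) of fl/fl p300 regions overlapped fl/fl 5fC (8.18% with the centre of the p300 region inside the mark, against 30.6% in Tdg -/- cells) and 64.6% (64.1 to 65.1) carried neither. Both marks together lay on 32.2% of Tdg -/- and 11.6% of fl/fl p300 regions. Regions scoring at least 500 held 5fC less often than the whole list, at 31.2% (29.8 to 32.6) in Tdg -/- and 6.90% (5.96 to 7.98) in fl/fl cells. The 5fC lists cover 111 Mb in Tdg -/- and 34.6 Mb in fl/fl cells, and the 5hmC lists 229 and 167 Mb. These differences in size by themselves move such shares.

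Among the acetyltransferases of the SAGA and ATAC complexes, Kat2a, which encodes GCN5, had 46.1 FPKM with and 40.2 FPKM without Tdg, a log2 change of -0.20. Kat2b, for its paralog PCAF, had 21.9 and 22.5 FPKM (0.04). The share of Kat2a in their sum was 67.9% in fl/fl and 64.1% in Tdg -/- cells. Of the partners of these enzymes, 22 of 24 listed symbols were found and all 22 were measured. Of these, 17 lay below 0 and 5 above, with a median of -0.06, while 54.9% of all measured genes lay below 0. With both columns scaled to the same sum, 11 of the partners lay below 0 and 11 above, while 40.4% of all measured genes lay below 0. Tada2a, Usp22 and Atxn7l3 of this list lie on chromosome 11 and had a median of -0.25. Of the 19 elsewhere, 14 were below 0 with a median of -0.02, against 52.3% and a median of -0.009 over all measured genes there. At -0.25 or lower were 3 of the 22 and at 0.25 or higher none, beside 10.2% and 8.92% of all measured genes. The 3 were Atxn7l3 (-0.36, 46.7 and 36.3 FPKM) and Eny2 (-0.28), both of the deubiquitinase module, and Taf6l (-0.28, 30.3 and 24.8 FPKM). Of 12 symbols listed for other acetyltransferases, some of them second names of the same gene, 7 were found, and all 7 were measured. Of these, 4 lay below 0 with a median of -0.03 and none was beyond 0.25. Myst2, on chromosome 11, was at -0.24, and Kat5, for TIP60, at -0.18. The 6 on other chromosomes had a median of -0.008. Over the 7 genes the median was 0.04 with the columns scaled to the same sum, as over all measured genes.

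The p160 coactivators bind ligand-bound nuclear receptors and recruit p300 and CBP. Ncoa3 was the main one, with 47.3 FPKM in the controls and 46.3 FPKM in the deleted cells (log2 change -0.03, and 0.04 or 0.02 with the columns scaled to the same sum or quantile normalized). Ncoa2 stood at 9.31 and 9.60 FPKM (0.04) and Ncoa1 at 4.96 and 5.70 FPKM (0.17). The family sum was 61.6 FPKM in each genotype, with Ncoa3 at 76.8% and 75.2% of it. Ncoa1 had the highest log2 change of the 10 members, on a difference of 0.738 FPKM. Of 27 nuclear receptor and partner genes, 17 were measured, 8 above 0 and 9 below with a median of -0.05. At -0.25 or lower were 3 of the 17 and at 0.25 or higher 2, beside 10.2% and 8.92% of all measured genes. The retinoic acid receptor genes Rara (-0.38, 18.8 and 14.2 FPKM) and Rarg (-0.34, 18.1 and 14.2 FPKM) had the largest changes of those with at least 5 FPKM. Prmt1, for an arginine methyltransferase, was the third at -0.28, and Nr0b1 (0.31) and Ncoa7 (0.47, from 2.55 to 3.91 FPKM) were the ones at 0.25 or higher. The 2 genes on chromosome 11, Rara and Thra, were both below 0, and the 15 elsewhere had a median of 0.03. Of all measured genes, 54.9% lay below 0. With the columns scaled to the same sum, 7 of the 17 lay below 0 and 10 above, with a median of 0.0064. Under that scaling 40.4% of all measured genes lay below 0, and their median was 0.04.

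**Figure D3:**
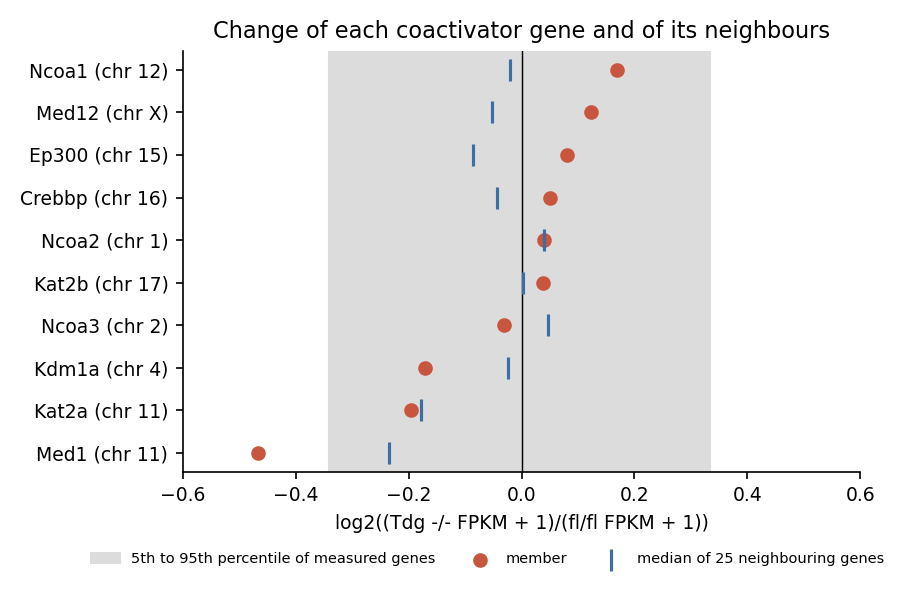
Log2 change of each member (circles) and the median over its 25 nearest measured genes on the chromosome (bars), with the 5th to 95th percentile of all measured genes (-0.34 to 0.33) in grey. Med1 alone is outside the grey band, and the neighbours of Med1 and Kat2a, both on chromosome 11, lie at -0.23 and -0.18.

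Med1, the Mediator subunit through which nuclear receptors contact the complex, was at 23.8 FPKM in the controls and 16.9 FPKM without Tdg, 71.2% of the control value. Its log2 change was -0.47, and 4.15% of measured genes had a larger absolute change. Med1 and Kat2a, 2 of the 4 members below 0, both lie on chromosome 11, whose 998 measured genes had a median log2 change of -0.21, while the medians of the other 19 chromosomes lay between -0.03 and 0.0044. Relative to the median of its 25 neighbours, Med1 was at -0.23 and Kat2a at -0.02, and 3 of the 25 neighbours of Med1 were lower than Med1 itself, against 10 of 25 for Kat2a. On the same chromosome the p300 regions numbered 2728 in fl/fl and 2147 in Tdg -/- cells, a ratio of 0.787. In 7 consecutive 20 Mb steps this ratio lay between 0.723 and 0.918. The value of 0.918 was that of the last step, which held only 61 and 56 regions, and the others were at most 0.875. On the other 19 chromosomes the ratio was 1.34 to 1.51. The other members lie on 8 chromosomes: Ep300 on 15, Crebbp on 16, Kat2b on 17, Ncoa1 on 12, Ncoa2 on 1, Ncoa3 on 2, Kdm1a on 4 and Med12 on X. Relative to their own neighbours Ncoa1 was at 0.19, Med12 at 0.18, Ep300 at 0.17, Crebbp at 0.09, Ncoa3 at -0.08 and Kdm1a at -0.15. Med1 thus remained the member farthest from 0 on this scale too, by a smaller margin. The part of these chromosome-wide differences in the values of Med1 and Kat2a was not tested.

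**Figure D4:**
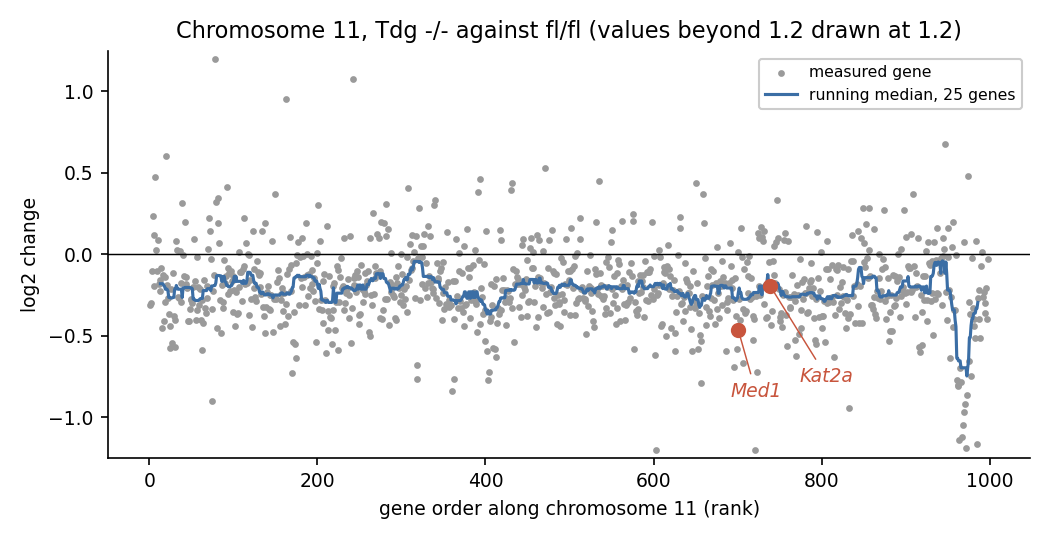
Log2 change of the 998 measured genes of chromosome 11 in gene order (grey points), their running median over 25 genes (line), and the members Med1 and Kat2a. The line stays below 0 along the chromosome (highest -0.04), Kat2a lies close to it and Med1 under it; points beyond 1.2 in either direction are drawn at 1.2.

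Med12 belongs to the Mediator kinase module, a detachable part that holds CDK8 and cyclin C and can block the contact of Mediator with the polymerase. Its level was 16.5 FPKM in the controls and 18.0 FPKM without Tdg, a log2 change of 0.12. Med1 was at 1.44 times Med12 in fl/fl cells and at 0.939 times in Tdg -/- cells, where the levels are too close to be ranked. The other 31 listed Mediator genes were all measured, with 27 below 0 and 4 above and a median of -0.12, against -0.02 over all measured genes. At -0.25 or lower were 5 of them (Med11, Med9, Med24, Med21 and Med10) and at 0.25 or higher 1 (Med12l), beside 10.2% and 8.92% of all measured genes. Of these 5, Med11, Med9 and Med24 lie on chromosome 11, where 42.2% of measured genes were at -0.25 or lower. Of the 31, 6 lie on chromosome 11, and the 25 on other chromosomes had 21 below 0 and a median of -0.09, against -0.009 over all measured genes there. With both columns scaled to the same sum, 22 of the 31 lay below 0 with a median of -0.05, against 40.4% of all measured genes and a median of 0.04 under that scaling. The 2 with the largest changes at 5 FPKM or more were Med11 (-0.57, 14.3 and 9.25 FPKM) and Med9 (-0.40, 9.49 and 6.98 FPKM), both on chromosome 11.

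The Mediator genes were also grouped by module, after these values were seen, and the ranges of the kinase module and of the other subunits overlapped. Of the 7 kinase module genes, Med12 included, 5 were above 0, namely Med12l (0.75, from 1.67 to 3.48 FPKM), Med13l (0.14), Med12 (0.12), Ccnc, for cyclin C (0.10), and Cdk19 (0.07), with Cdk8 at -0.12 and Med13, on chromosome 11, at -0.13. All 26 other subunits, Med1 included, were below 0, from -0.57 for Med11 to -0.0054 for Med19, with a median of -0.14. Their FPKM summed to 449.8 in fl/fl and 392.5 in Tdg -/- cells, and those of the kinase module to 109.8 and 114.5. After quantile normalization 25 of the 26 were below 0, and with the columns scaled to the same sum 21 were. Of all measured genes, 54.9% lay below 0 unscaled, 50.6% after quantile normalization and 40.4% with the columns scaled to the same sum. Of the 33 genes, Med11, Med1, Med9, Med24 and Med12l lay outside the range of -0.34 to 0.33 that holds the middle 90% of measured genes, and the first 4 of these are on chromosome 11. There is no replicate and no test of the difference between the modules.

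**Figure D5:**
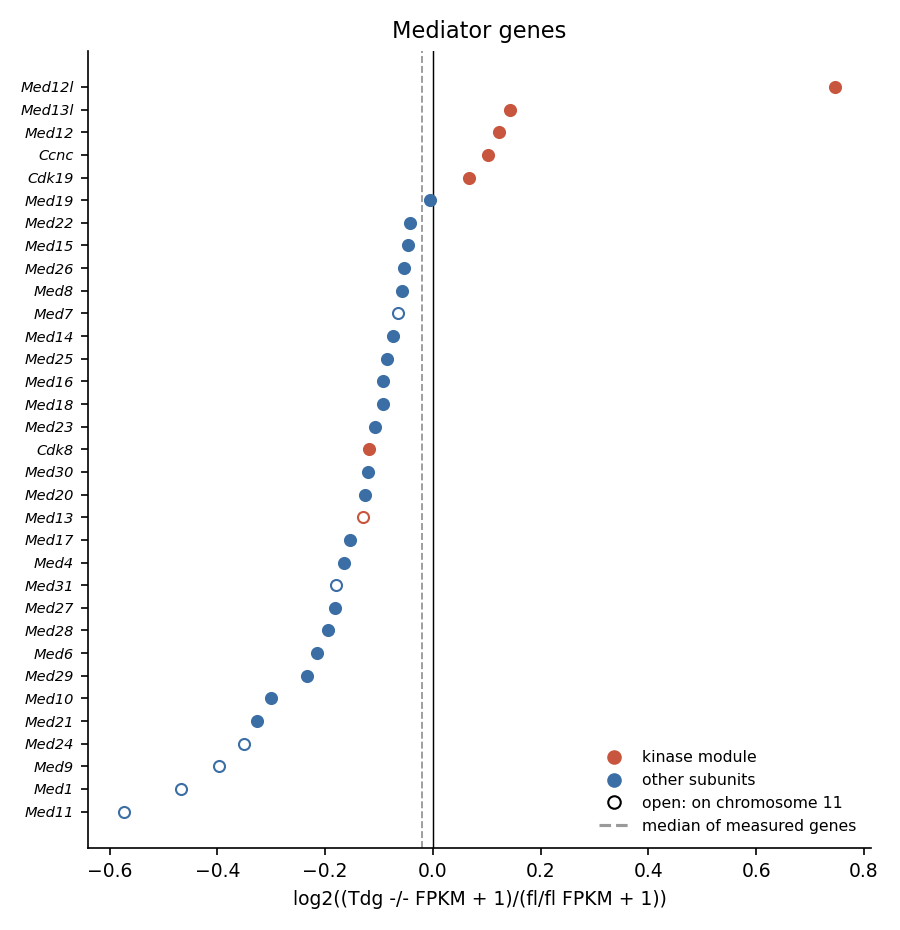
Log2 change of the 33 Mediator genes, in order of their values, with kinase module genes in red, other subunits in blue, open circles for genes on chromosome 11 and a dashed line at the median of all measured genes. The 5 genes above 0 are all of the kinase module, and 4 of the 5 lowest genes are on chromosome 11.

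Kdm1a, which encodes LSD1, was the highest member, with 80.6 FPKM in the controls and 71.5 FPKM without Tdg, a log2 change of -0.17. Its 25 neighbours on chromosome 4 had a median of -0.02, and 2 of them were lower than Kdm1a. Of the 25 listed corepressor partners and deacetylases, all measured, 16 lay below 0 and 9 above, with a median of -0.05. At -0.25 or lower was 1 (Chd4) and at 0.25 or higher 1 (Rcor3, 0.42, from 3.12 to 4.50 FPKM), beside 10.2% and 8.92% of all measured genes. With the columns scaled to the same sum, 10 lay below 0 and 15 above, while 40.4% of all measured genes lay below 0. The largest changes at 5 FPKM or more were those of Chd4, the remodelling ATPase of NuRD (-0.25, 110 and 92.6 FPKM), and Rcor2, a CoREST scaffold for LSD1 (-0.23, 41.8 and 35.5 FPKM).

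The last lists of genes that work beside the coactivators had medians close to 0. Of 20 measured genes for enhancer methylation, acetyl-lysine readers, remodelling and cohesin, 12 were above 0 and 8 below with a median of 0.0038 (16 above 0 and 4 below with the columns scaled to the same sum, where 40.4% of all measured genes lay below 0). Of these, Stag1 of cohesin (0.25, 18.2 and 21.9 FPKM) was the 1 gene past 0.25 in either direction, with Mll3, for an enhancer histone methyltransferase, next at 0.16. Among all measured genes, 10.2% were at -0.25 or lower and 8.92% at 0.25 or higher. Of 22 measured partners of p300 and CBP, 10 were above 0 and 12 below with a median of -0.02. At -0.25 or lower were 2 of the 22 and at 0.25 or higher 1 (Cited4, 0.44, from 1.396 to 2.252 FPKM), beside the same 10.2% and 8.92%. The largest changes at 5 FPKM or more were those of Trp53 (-0.33, 154 and 123 FPKM) and Srebf1 (-0.28, 34.6 and 28.4 FPKM). Both lie on chromosome 11, and the 19 partners elsewhere had a median of 0.0059. With the columns scaled to the same sum, 12 of the 22 partners were above 0 and 10 below. Their median was then 0.04, as was that of all measured genes.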

How the data were processed

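The members and lists were chosen with earlier results of these data known. FPKM values were deposited by the authors, 1 per gene and genotype; the submitters' processing notes name TopHat 1.4.1, Cufflinks 1.3.0 and mm9. No source used here says how the 2 libraries became 1 value. The score of each region was deposited by the authors; the same notes name MACS 1.4, and each list covers all libraries of its group. Neither holds read numbers, so depth is unknown. Rows of 1 symbol were summed (20437 rows), a pseudocount of 1 FPKM was added before log2, and genes with at least 1 FPKM in either genotype were measured. Regions on chromosomes 1 to 19 and X were compared at an overlap of at least 1 bp, with Wilson 95% intervals for counting error. Chromosome and gene order came from RefSeq on GRCm38.p6, which placed 11971 of 12053 measured genes, also through older symbols. Named besides the members were, per list, the 2 genes with the largest absolute change at 5 FPKM or more, any changed by at least 1, and the 3 nearest to Ep300; the module split of Mediator, the genes named in it and other list genes named for being past 0.25 were chosen after the values were seen. The code was tested on tables and lists made with known answers. Python 3.11.15, pandas 2.3.3 and statsmodels 0.14.6 were used. Embryoid body, input, control enrichment and H3K4me1 libraries were not used here.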

Additional observations from a re-analysis of the deposited data

How the results depend on the processing

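Each genotype has 1 pooled value per gene and 1 pooled list, so no replicate could be left out. No paired analysis was possible because the deposited tables and lists carry no replicate columns. Over 7 alternatives per member (pseudocounts of 0.1 and 5 FPKM, 3 scalings, the highest row of a symbol, and the 25 neighbours subtracted), Ncoa3 turned its sign under the 2 scalings given with it and Ncoa2 reached -0.00016 against its neighbours; the other 8 members kept their sign under the 4 alternatives that can turn one (the scalings and the neighbours), which a pseudocount, or the highest row where each member has 1, cannot. The number of members at -0.25 or lower was 1, and at 0.25 or higher 0, with a pseudocount of 0.1 FPKM, a minimum of 5 FPKM, no minimum, and the columns scaled to the same sum or quantile normalized; relative to its neighbours Med1 was at -0.23, so that no member was at -0.25 or lower. The number of measured genes changed by at least 1 was 43, and 110 with a pseudocount of 0.1 FPKM or 22 with a minimum of 5 FPKM. With the columns scaled to the same sum, chosen after seeing the data, 1584 measured genes were at 0.25 or higher and 774 at -0.25 or lower, so that 67.2% of such genes were higher in place of 46.6% (1075 and 1231). With a minimum of 5 FPKM, 623 were at 0.25 or higher. The ratio of p300 region numbers was 1.31 after merging of regions closer than 1 kb and 1.3998 without chromosome 11. Gained regions made up 42.2% of the Tdg -/- p300 list, 43.8% where a larger part of a region, 0.5 of it, had to be covered and 44.8% at a score of at least 100; lost ones made up 21.6% of the fl/fl list, 22.4% and 19.8%. With the centre of the p300 region inside the mark, 5fC lay at 8.18% of fl/fl and 30.6% of Tdg -/- p300 regions, and 5hmC at 20.8% and 28.9%. The listing of regions at the members' own loci was not run.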

Other observations

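Near the end of the gene order of chromosome 11, beyond Med1 and Kat2a, the running median over 25 measured genes went down to -0.75, from a median of -0.21 over the chromosome. Neither member lies in that stretch, at places 701 and 739 of 998, where the running median was -0.23 and -0.18.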
